A study of Homo sapiens with 14 samples.

Results

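Among the adenosines that read as guanosine in RNA of cells carrying the editor DECOR, some were listed in pairs exactly 2 bases apart. A site was taken as a member when another site stood 2 bases away on the same chromosome in the same DECOR list, and members were joined over the 2 DECOR lists. This gave 520 sites in 267 pairs, out of 9304 distinct DECOR sites (5.59%) and 26172 distinct sites in the lists of all editors. Of the members, 14 belonged to 2 pairs. The positions and the presence of a site in a DECOR list chose the members, so their number and their A-to-G levels in DECOR are given as a description, with no test.

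The samples were HEK293T cells, an established line of human embryonic kidney origin, which readily takes up foreign DNA. All 14 libraries, in 7 groups of 2, were made from polyadenylated RNA of cells treated with an RNA base editor, and there was no library without an editor. Titles give the editor and then a target name, taken here as the guide. The groups were DECOR with the MALAT1 guide, dCas13d-ADAR with the NT or the EZH2 guide, and REPAIR.t1 and REPAIRv2 (Repair.t1 and Repair.v2 in the labels) with the NT or the EZH2_A22 guide. MALAT1 is a long nuclear noncoding RNA and EZH2 is the catalytic subunit of the histone methyltransferase complex PRC2, and NT and A22 are left unexplained in the labels. MALAT1 was the target in the DECOR libraries only, and these were read for 62 and 160 cycles, against 25 and 97 elsewhere. The effects of the editor, its target and the number of cycles cannot be told apart. Replicates are not said to be independent cultures, so differences between them, and every p-value given here, measure the spread between libraries, which may be technical.

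RNA base editors convert adenosine to inosine, which pairs with cytidine and is read as guanosine in sequencing. The deaminase domains of ADAR enzymes act on double-stranded RNA, and REPAIR editors join such a domain to a catalytically inactive Cas13 protein that a guide RNA directs. The series title names an evolved bacterial adenosine deaminase; the bacterial enzyme TadA naturally deaminates the wobble adenosine in the anticodon loop of a transfer RNA. The labels do not say which deaminase DECOR carries. Conversion at a base other than the one aimed at is called off-target editing, and a pair of converted bases this close can lie on the same read.

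A listed site has a chromosome, a position and an A-to-G rate, the fraction called its level here. Lists hold 5516 and 5855 sites for DECOR, 4356 to 4784 for REPAIR.t1, 5730 to 5834 for dCas13d-ADAR and 46 to 101 for REPAIRv2. They give neither coverage nor strand. The depth behind a level is therefore unknown, no counting error can be attached to it, and a position missing from a list may have been unedited, under a threshold of the authors or covered by too few reads. Positions are as deposited, and the submitters' processing notes name hg19 (GRCh37). Genes, exons and neighbouring bases of the sites, and their sequences, were not analysed here, since no genome or annotation of that build was used. Partners are called lower and higher by coordinate, which is not the 5′ to 3′ order where the transcript comes from the minus strand.

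Pairs 2 bases apart were the most frequent spacing up to 30 bases in both DECOR lists. The list of replicate 1 held 147 such pairs and that of replicate 2 held 175, or 26.6 and 29.9 pairs per 1000 listed sites. In the same lists, pairs 1 base apart numbered 31 and 32 and pairs 3 bases apart 91 and 82, which are the spacings just outside the rule. Pairs 4 bases apart numbered 52 and 60, and from 11 to 30 bases each distance held 12 to 34 pairs per list. The 2 DECOR libraries were alike in this order of spacings.

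The other editors listed a different order of spacings. Pairs 2 bases apart numbered 24 to 35 per library for REPAIR.t1 (6.07 ± 0.937 per 1000 sites, SD, n = 4) and 22 to 25 for dCas13d-ADAR (4.02 ± 0.217, n = 4), against 28.3 ± 2.29 for DECOR (SD, n = 2). The ratio of DECOR to REPAIR.t1 in pairs per 1000 sites was 4.66 at 2 bases and 1.72 at 3 bases. To dCas13d-ADAR it was 7.04 and 1.78. At 1 base the ratio was below 1, at 0.370 and 0.526. REPAIRv2 listed no pair 2 bases apart in any of its 4 short lists. Since the members were chosen on the 2-base spacing in DECOR, these differences were not tested.

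**Figure D1:**
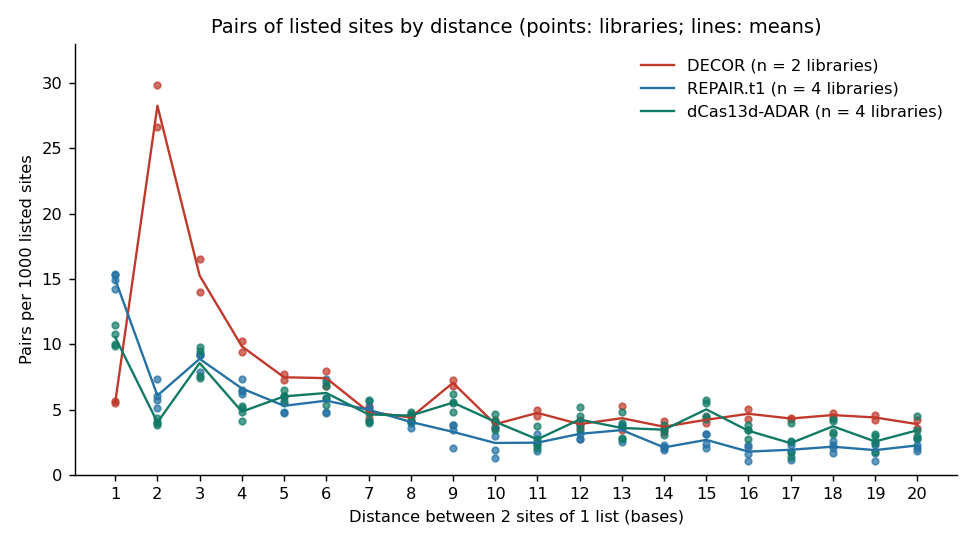
Pairs of listed sites per 1000 sites of the list (vertical axis) against the distance between the sites in bases (horizontal axis), with 1 point per library and a line through each editor's mean. REPAIRv2, with lists of 46 to 101 sites, is not drawn. Both DECOR libraries (26.6 and 29.9) lie above all libraries of REPAIR.t1 and dCas13d-ADAR at 2 bases and below all of them at 1 base.

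Members made up 5.22% of the sites of DECOR replicate 1 and 5.79% of those of replicate 2, counting each list by its own pairs. In the other editors 0.760% to 1.47% of the sites of a REPAIR.t1 or dCas13d-ADAR list stood in such a pair. Chromosome 19 held the most DECOR pairs, 36 of 267, and 13.7% of members against 9.62% of the other DECOR sites. Of these 36 pairs, 8 lay in 1 stretch of 1509 bases, from 14626035 to 14627543. A further 3 lay close by, from 14629053 to 14629061, so the share of chromosome 19 rests in part on 1 locus. Chromosome 3 held 24 pairs and 8.65% of members, against 5.24% of the other DECOR sites. Chromosome 1 held 23 pairs and 8.85% of members, against 11.95% of the other sites. Expression and coverage along the chromosomes were not analysed here.

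Most pairs came from 1 DECOR library. Both partners were listed by both libraries in 55 pairs, by replicate 1 alone in 92 pairs and by replicate 2 alone in 120 pairs. Of the 147 pairs of replicate 1, the list of replicate 2 held both partners in 55 (37.4%), a single partner in 53 (36.1%) and neither in 39 (26.5%). Of the 175 pairs of replicate 2, the list of replicate 1 held both in 55 (31.4%), a single partner in 59 (33.7%) and neither in 61 (34.9%). A whole pair was thus found again about as often as a single site of the whole list, at 37.5% of the sites of replicate 1 and 35.3% of those of replicate 2.

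The sites of pairs were found again more often than other DECOR sites. Of the 288 pair sites of replicate 1, 158 (54.9%) were listed by replicate 2, against 1909 of the 5228 other sites (36.5%). In the other direction 161 of 339 pair sites (47.5%) and 1906 of 5516 other sites (34.6%) were listed again. Sites of pairs 1 base apart recurred in like shares, 33 of 59 (55.9%) and 29 of 61 (47.5%), so this was not limited to the 2-base spacing. Sites of pairs 3 bases apart recurred less, in 70 of 180 (38.9%) and 67 of 163 (41.1%). The sites outside such 3-base pairs recurred at 37.4% and 35.1%. Among pairs 2 bases apart with at least 1 partner in the other library, both were listed there in 50.9% for replicate 1 (55 of 108). For replicate 2 the share was 48.2% (55 of 114). Pairs with both partners listed again were thus about as many as pairs with a single one. The single partner was the lower coordinate in 28 and the higher in 25 pairs of replicate 1, and in 32 and 27 of replicate 2.

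Pairs at the neighbouring spacings served as a comparison. Of the pairs 3 bases apart, 23.1% of the 91 in replicate 1 and 25.6% of the 82 in replicate 2 had both partners in the other list, which is lower than at 2 bases in both directions. At 1 base these shares were 35.5% of 31 and 34.4% of 32, close to those at 2 bases. Pairs 2 bases apart in the other editors recurred in the other library of their group in 44.0% to 55.2% of cases for REPAIR.t1 and 28.0% to 36.4% for dCas13d-ADAR, with 22 to 35 pairs per library. Over all sites of these lists the shares were 42.5% to 45.7% for REPAIR.t1 and 49.4% to 51.1% for dCas13d-ADAR, above the pair shares in all 4 dCas13d-ADAR libraries, and these differences were not tested.

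The median pair level in replicate 1, the mean of both partners, was 0.225 for pairs with both partners in replicate 2, 0.238 with a single partner there and 0.213 with neither. For the pairs of replicate 2 these medians were 0.221, 0.181 and 0.210. In both libraries the median was slightly higher for pairs with both partners listed again than for pairs with neither, and the place of the single-partner class changed. These differences were not tested.

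Levels of members were close to those of other DECOR sites. In replicate 1 the 342 listed members had a lowest level of 0.0656, a median of 0.217 and a highest level of 0.568. The 5174 other sites of that list had a median of 0.211 and reached 0.769. In replicate 2 the 390 listed members had a lowest level of 0.0781, a median of 0.2 and a highest level of 0.569, and the 5465 other sites a median of 0.208 and a highest level of 0.9. Members were thus higher by median in replicate 1 and lower in replicate 2, and neither difference exceeded 0.01.

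Few members were edited at a level of 0.5 or more. There were 4 in replicate 1 (1.17% of members, against 1.74% of other sites) and 5 in replicate 2 (1.28% against 1.70%), at 9 positions in all, and no position reached 0.5 in both libraries. The nearest to it, by the lower of the levels, was position 38976744 on chromosome 2, at 0.486 and 0.512. On chromosome 7, position 75932247 was listed at 0.467 and 0.54, and its partner at 75932249 at 0.170 in replicate 1 alone. On chromosome 18, position 21057025 was listed by replicate 2 at 0.5625 beside a partner at 0.4375, the highest pair that only 1 library listed. These sites were picked with their values in view.

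Most partners of a pair lay within 0.1 of each other, a smaller share than at 3 to 6 bases, and single pairs differed widely. In replicate 1 the median absolute difference between partners was 0.0489 over 147 pairs (quartiles 0.0208 and 0.111, highest 0.336). In replicate 2 it was 0.0509 over 175 pairs (quartiles 0.0215 and 0.0948, highest 0.352). Partners lay within 0.1 of each other in 71.4% and 76.0% of pairs. A partner at 2 times the level of the other or more was seen in 19 and 10 pairs. The shares within 0.1 were 80.2% and 85.4% at 3 bases, 82.7% and 83.3% at 4 bases and 90.0% and 82.2% at 5 bases. At 6 bases they were 84.1% and 82.5%, and at 1 base 90.3% and 68.75%. These differences between spacings were not tested.

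The side with the higher level was not fixed by coordinate. In replicate 1 the higher coordinate had the higher level in 68 pairs, the lower coordinate in 71, and 8 pairs were equal. In replicate 2 these numbers were 98, 73 and 4. Without strand, this does not give the order along the transcript.

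Across pairs, the levels of the partners were related only loosely. Pearson's r between lower and higher partner was 0.318 in replicate 1 (Spearman's rho 0.350, 147 pairs) and 0.413 in replicate 2 (rho 0.430, 175 pairs). At 1 base it was 0.755 (31 pairs) and 0.455 (32 pairs), and at 3 bases 0.505 (91 pairs) and 0.557 (82 pairs). At 4 bases it was 0.464 (52 pairs) and 0.569 (60 pairs), and at 5 bases 0.756 (40 pairs) and 0.593 (45 pairs). At 6 bases it was 0.774 (44 pairs) and 0.479 (40 pairs), so there was no steady change with distance. These values are across pairs of 1 library, which share its depth and the lowest level that was listed, and some pairs share a site, so they are descriptions.

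**Figure D2:**
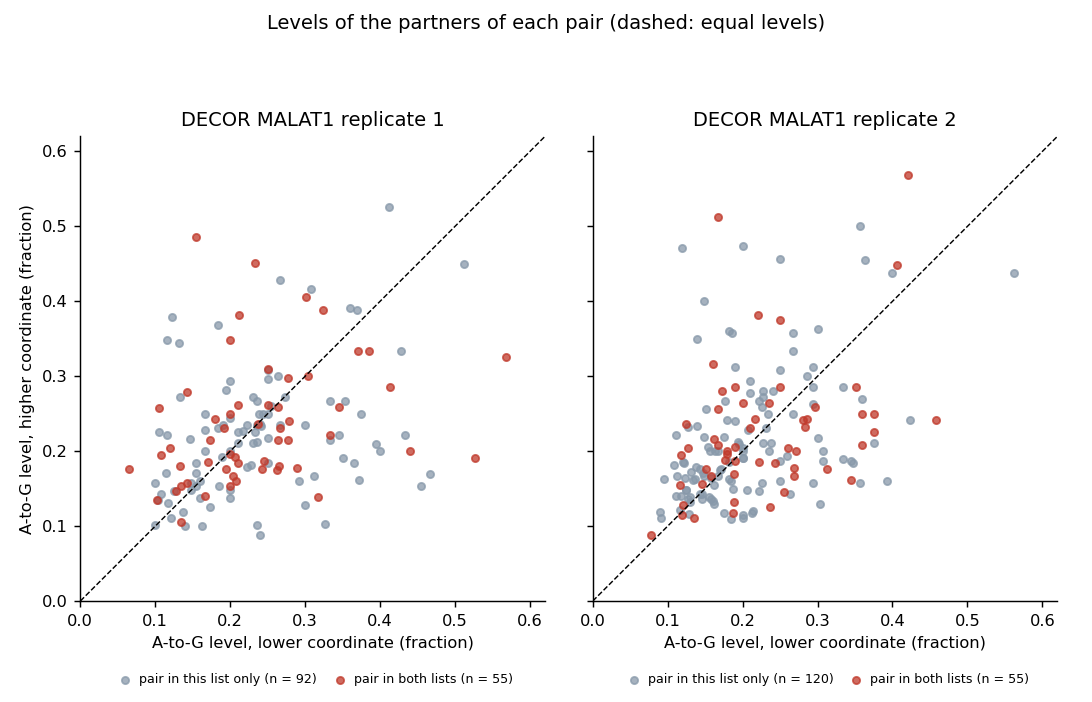
A-to-G level of the lower-coordinate partner (horizontal axis) and of the higher-coordinate partner (vertical axis), both as fractions, with 1 point per pair in each DECOR library; red points are the 55 pairs found in both lists. Points scatter widely on both sides of the line of equal levels, with a median absolute difference of 0.0489 in replicate 1 and 0.0509 in replicate 2.

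The 55 pairs in both libraries allow a difference between partners to be set against the error of a level. At their 106 sites the same position differed between the libraries by a median of 0.0369 (quartiles 0.0198 and 0.0873). At the 1855 other DECOR sites in both lists this difference was 0.0414. The partners of these 55 pairs differed by a median of 0.0550 within a library (quartiles 0.0268 and 0.110). By median, the difference between partners was larger than the difference of a site from itself in the other library, and the quartile ranges overlapped.

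Larger differences between partners mostly kept their order in the other library. Of the 55 pairs, 41 had the same partner higher in both libraries and 14 did not. Of the 15 pairs whose partners differed by at least 0.1 in replicate 1, 14 had the same order in replicate 2. Of the 17 with at least 0.1 in replicate 2, 15 had the same order in replicate 1. The signed difference in replicate 1 correlated with that in replicate 2 at r = 0.716 (rho 0.629, 55 pairs, some sharing a site). The mean level of the pair correlated at r = 0.590 (rho 0.592).

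**Figure D3:**
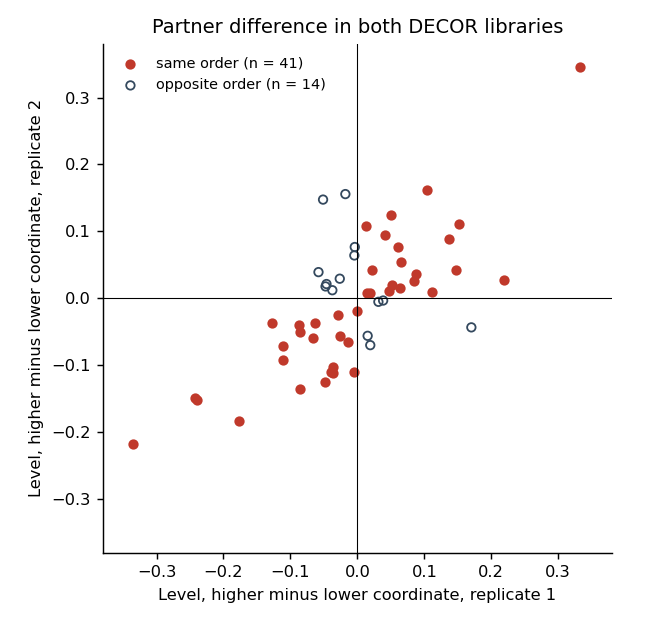
Level of the higher minus the lower coordinate in replicate 1 (horizontal axis) and in replicate 2 (vertical axis), as fractions, for the 55 pairs found in both DECOR lists. Filled points are the 41 pairs with the same order in both libraries, and of the 14 open points all but 3 lie within 0.05 of 0 on the replicate 1 axis.

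The most unequal pair with a constant order in both libraries was on chromosome 2. Position 38976742 was listed at 0.154 and 0.167 in replicates 1 and 2, and position 38976744 at 0.486 and 0.512. The higher coordinate exceeded the lower by 0.332 and 0.346, and the libraries differed by less than 0.03 at either site. This is the largest difference among the 41 pairs with a constant order.

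In the next 4 pairs by size of difference the lower coordinate had the higher level. On chromosome 3, position 48198759 was listed at 0.526 and 0.458 and position 48198761 at 0.190 and 0.241. On chromosome 19, position 47712937 was listed at 0.440 and 0.360 and position 47712939 at 0.2 and 0.208. On chromosome 13, position 31727045 was listed at 0.568 and 0.375 and position 31727047 at 0.326 and 0.226. The libraries of these 3 pairs did not overlap between partners, although the lower coordinate on chromosome 13 differed more between libraries than the others. The pair at 30094736 and 30094738 on chromosome 16 was the steadiest of the 4, at 0.317 and 0.345 against 0.140 and 0.161.

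At the other end of the 41 pairs with a constant order, partners were almost equal. On chromosome 8, positions 146015787 and 146015789 were listed at 0.237 and 0.236 in replicate 1 and at 0.188 and 0.169 in replicate 2. On chromosome X, position 53458329 was listed at 0.143 and 0.158 in replicates 1 and 2 and position 53458331 at 0.158 and 0.167. On chromosome 2, position 62110651 was listed at 0.128 and 0.12 and position 62110653 at 0.146 and 0.128. In these 3 pairs the partner difference was below 0.02 in each library. The remaining 2 of the 5 most equal pairs of constant order were at 75111800 on chromosome 11 and 57033085 on chromosome 12 (lower coordinates). They differed by -0.0268 and 0.0288 on average, higher minus lower coordinate. Some pairs whose order changed between the libraries were more equal than these 2. An example is 39711377 and 39711379 on chromosome 22, at a mean absolute difference of 0.0183.

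Among the 55 pairs in both libraries, the highest was at 14626753 and 14626755 on chromosome 19, at a mean level of 0.427. Its lower coordinate was listed at 0.385 and 0.421 and its higher coordinate at 0.333 and 0.569, so the order turned between the libraries. On chromosome 3, position 39450192 was listed at 0.2 and 0.406 and position 39450194 at 0.348 and 0.448, a mean of 0.351. Position 19378881 on chromosome 9 was listed at 0.302 and 0.221 and position 19378883 at 0.406 and 0.382. In the first and second of these 3 pairs a site differed between libraries by more than 0.2.

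The pair at 48199593 and 48199595 on chromosome 3 averaged 0.355 ± 0.0831 and 0.272 ± 0.0187 (SD, n = 2 libraries). The pair at 62338470 and 62338472 on chromosome 11 averaged 0.332 ± 0.0394 and 0.275 ± 0.0354. The pair at 127340690 and 127340692 on chromosome 3 averaged 0.225 ± 0.0121 and 0.347 ± 0.147. With the pairs on chromosomes 2, 3, 9, 13 and 19 above, these complete the 10 highest pairs in both libraries, from 0.286 to 0.427. Over all 55 such pairs the mean level ran from 0.102 to 0.427 with a median of 0.229. The 92 pairs of replicate 1 alone had a median of 0.222 and the 120 pairs of replicate 2 alone a median of 0.196.

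Sites in longer runs, with every step of 2 bases, were rare. There were 11 runs of 3 or 4 sites in the DECOR lists, with 35 distinct sites. Replicate 1 held 2 chains of 3 and 2 of 4, and replicate 2 held 9 of 3 and 1 of 4. No chain was longer than 4 sites. Among the 12 other libraries, 1 chain of 3 was listed, by dCas13d-ADAR with the EZH2 guide, replicate 1.

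The only run with the same 4 sites in both libraries was on chromosome 3, from 23959939 to 23959945 (run 2). Its levels along the coordinate were 0.12, 0.204, 0.167 and 0.140 in replicate 1 and 0.151, 0.176, 0.189 and 0.132 in replicate 2. Both inner sites were higher than both outer sites in each library. The SD between libraries at its sites was 0.00560 to 0.0219.

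On chromosome 7, from 99695320 to 99695326 (run 1), replicate 1 listed 4 sites at 0.143, 0.279, 0.24 and 0.237. Replicate 2 listed the first 3 of them at 0.167, 0.256 and 0.146. The second site was the highest in both libraries. On chromosome 6, from 44219806 to 44219810 (run 6), the levels were 0.25, 0.262 and 0.175 in replicate 1 and 0.172, 0.281 and 0.241 in replicate 2. Here too the middle site was the highest in both libraries.

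The other 8 runs reached 3 sites in 1 library only. For 5 of them the other library still listed at least 1 of the sites. On chromosome 3, from 127339684 to 127339688 (run 3), replicate 1 listed 0.375, 0.25 and 0.296, and replicate 2 the outer sites at 0.25 and 0.28. On chromosome 11, from 65055224 to 65055228 (run 5), replicate 2 listed 0.25, 0.375 and 0.211, and replicate 1 the first and middle sites at 0.2 and 0.25. On chromosome 19, from 2429984 to 2429988 (run 4), replicate 2 listed 0.211, 0.294 and 0.312 and replicate 1 none of the sites.

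The remaining runs were lower. Run 7, from 72801232 on chromosome 5, run 8, from 144900225 on chromosome 8, and run 10, from 35438485 on chromosome 6, had levels in replicate 2 that increased with the coordinate, from 0.125 at the lowest to 0.241 at the highest. Run 9, from 62651981 on chromosome 11, was listed at 0.121, 0.185 and 0.161 in replicate 2, and its middle site at 0.163 in replicate 1. Run 11, named outside the rule for named sites, started at 39711375 on chromosome 22 and was the lowest, at a mean of 0.108. Over the 14 chains of both lists, the highest site was an inner site in 9, and the levels within a chain spanned 0.0299 to 0.164. Runs 1, 2 and 6 enter this count once per library, so the chains are not independent. A chain of 3 has 1 inner site and a chain of 4 has 2, and the count was not tested. In run 11 the middle site was highest in replicate 2, but replicate 1 listed it at 0.103, below the third site at 0.134.

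**Figure D4:**
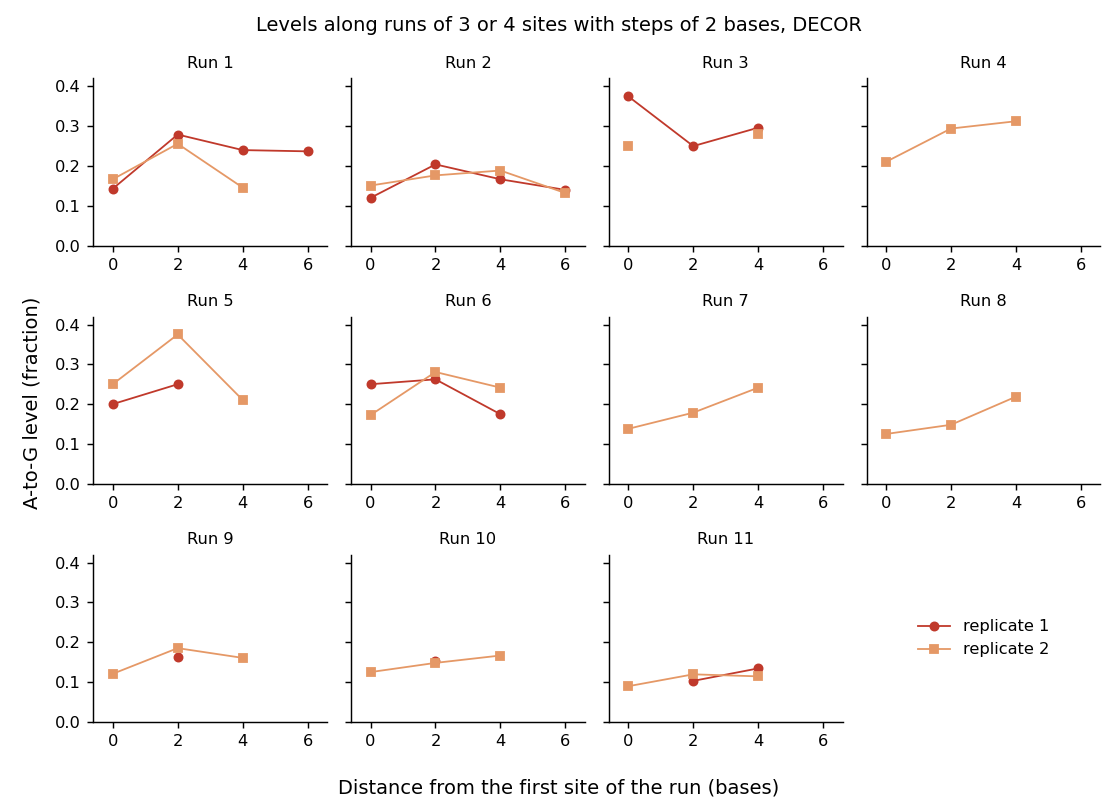
A-to-G level (fraction, vertical axis) against distance from the first site in bases (horizontal axis) for the 11 runs of 3 or 4 DECOR sites, ordered by number of sites and mean level, with circles for replicate 1 and squares for replicate 2. Points missing for a library are sites it does not list; runs 1, 2 and 6 reach 3 sites or more in both libraries.

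The base between the partners was seldom listed, as were neighbours at 1 base over all DECOR sites. In replicate 1, 59 of 5516 sites stood 1 base from another listed site, and in replicate 2, 61 of 5855. The small count below thus does not set the pairs apart. DECOR listed it in 4 of the 267 pairs, which are named here after their values were seen. On chromosome 19, position 14626888 was listed at 0.25 and 0.207, between partners at 0.192 to 0.231 and 0.186 to 0.190 in the 2 libraries, and position 42365237 at 0.2 and 0.141. Position 99695325 on chromosome 7, inside run 1, was listed by replicate 1 at 0.18, and position 61563976 on chromosome 11 by replicate 2 at 0.241. No list of another editor held the middle base of any of the 267 pairs. Such lists held the base just below the lower partner in 1 pair and the base just above the higher partner in 0. The middle base was thus not set apart from these.

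Pair sites had further DECOR sites nearby more often than other DECOR sites did, though most had none within 50 bases. Leaving aside positions 2 bases away, 45.8% of the pair sites of replicate 1 and 46.0% of those of replicate 2 had another listed site within 50 bases, against 28.9% and 28.7% of the other sites. Within 10 bases these shares were 16.7% and 21.5%, against 11.1% and 10.7%. Pairs no more than 1000 bases from the next pair formed 227 groups, of which 200 held a single pair and 27 held 2 or more, with 67 pairs.

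The largest group was on chromosome 19, from 14626035 to 14627543. It held 8 pairs and 44 DECOR sites in 1509 bases, and 5 of the 8 pairs were in both libraries. Its member levels, averaged over the lists, ran from 0.131 to 0.512 with a median of 0.254. The pair at 14626035 and 14626037 was listed at 0.289 and 0.178 in replicate 1 and at 0.271 and 0.2 in replicate 2, and the pair at 14627391 and 14627393 at 0.211 and 0.262 and at 0.211 and 0.231. The lower coordinate was higher in the former and lower in the latter, in both libraries. The other editors listed 3 sites in the same 1509 bases.

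A group of 4 pairs on chromosome 6, from 44219806 to 44220799, contained run 6. Its member levels had a median of 0.192, and the other editors listed 3 sites there. A group of 3 pairs on chromosome 3, from 48198759 to 48200201, contained 2 of the 10 highest pairs. Its median was 0.297, with 13 DECOR sites and 3 sites of other editors in 1443 bases. These groups were chosen after their values were seen, and no test was run on them.

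The other editors listed few of the members. At exactly the same position, 11 of 520 members (2.12%, 95% exact binomial interval 1.06% to 3.75%) were in a list of REPAIR.t1, dCas13d-ADAR or REPAIRv2, against 338 of the 8784 other DECOR sites (3.85%, interval 3.46% to 4.27%). Over all DECOR sites the share was 3.75%. Among the 212 members in both DECOR lists it was 2.36% (5 sites, interval 0.770% to 5.42%), against 4.85% of the 1855 other DECOR sites in both lists. Among the 106 sites of pairs with both partners in both DECOR libraries it was 3.77%. The intervals cover counting of positions only, and neighbouring positions are not independent. REPAIRv2 listed no member, with 19 of the other DECOR sites in its lists.

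With a site of another editor within 50 bases, the shares were 36.2% of members and 32.1% of other DECOR sites. Within 2 bases they were 5.0% and 4.70%, but there a listed member also counts for its partner, by the rule, so these 2 shares cannot be compared. A site of another editor stood within 50 bases of a partner in 99 of the 267 pairs (37.1%), and in 25 of the 55 pairs found in both DECOR lists.

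No pair was shared between DECOR and another editor. REPAIR.t1 and dCas13d-ADAR lists held 100 distinct pairs 2 bases apart (69 and 60, some common to both), and 0 of them were among the 267 DECOR pairs. DECOR listed a partner of 3 of these 100 pairs and a site within 50 bases of 27. In 256 DECOR pairs no partner was listed by another editor, in 11 a single partner was, and in 0 both were. Over all DECOR sites, another editor listed 349 of 9304 (3.75%) at the same position. At so low a share, these counts of 0 do not set the pairs apart from other DECOR sites. Of the 11 members that another editor listed, 9 were the lower and 2 the higher coordinate of their pair.

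The lists of dCas13d-ADAR held more members than those of REPAIR.t1. REPAIR.t1 with the NT guide listed 2 and 3 members, and with the EZH2_A22 guide 3 and 4. dCas13d-ADAR with the NT guide listed 5 and 5, and with the EZH2 guide 6 and 6. The libraries of the 2 editors did not overlap, at 3.0 ± 0.816 members for REPAIR.t1 and 5.5 ± 0.577 for dCas13d-ADAR (SD, n = 4 each; difference 2.5, two-sided exact permutation p = 0.0286, the smallest that 70 arrangements allow). Only these 2 editors were contrasted by a test, which was also run in other settings and on the other DECOR positions. Without any 1 of the 8 libraries the difference was 2.17 to 2.83 at an exact permutation p of 0.0571, the smallest that 35 arrangements allow.

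The dCas13d-ADAR lists were also longer, and as a share of the list the members came to 0.0950% ± 0.00950 against 0.0645% ± 0.0169 (SD, n = 4 each; exact permutation p = 0.0286). The other DECOR positions differed in the same direction, at 165.75 ± 7.04 per dCas13d-ADAR library against 106.25 ± 7.27 per REPAIR.t1 library (SD, n = 4 each; exact permutation p = 0.0286). At a level of at least 0.2 the editors had equal numbers of members, at a difference of 0. Each then listed only 0.75 ± 0.5 members per library (SD, n = 4 each), which leaves little to compare. With labels permuted within each guide p was 0.0556, the smallest that 36 arrangements allow.

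Both editors listed 4 of the 11 members, dCas13d-ADAR alone 6 and REPAIR.t1 alone 1. Position 77369373 on chromosome X (member 1) was in all 8 lists of the 2 editors, at 0.211 ± 0.0574 in REPAIR.t1 and 0.261 ± 0.0684 in dCas13d-ADAR (SD, n = 4 each). DECOR listed it in replicate 2, at 0.175, which is inside the range of both. Position 75111800 on chromosome 11 (member 2) was also in all 8 lists, at 0.144 ± 0.0268 in REPAIR.t1 (0.115, 0.132, 0.176 and 0.154) and 0.216 ± 0.0296 in dCas13d-ADAR (0.210, 0.217, 0.184 and 0.255). The 2 editors did not overlap there. DECOR listed it at 0.134 and 0.136, below every dCas13d-ADAR library.

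Position 50909695 on chromosome 19 (member 3) was in all 4 dCas13d-ADAR lists, at 0.333, 0.357, 0.222 and 0.24, and in none of REPAIR.t1. Its level in DECOR replicate 1 was 0.154, lower than all of them. Position 153628255 on chromosome X (member 4) had the lowest levels. It was listed at 0.0656 and 0.0781 by DECOR, at 0.118 to 0.122 by 3 dCas13d-ADAR libraries and at 0.111 by 1 REPAIR.t1 library.

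The other 7 members were in 1 or 2 lists of the other editors. Position 121764911 on chromosome 12 (member 5) was at 0.5 in 1 REPAIR.t1 library and at 0.235 in 1 dCas13d-ADAR library, against 0.211 in DECOR. Position 22117609 on chromosome 22 (member 6) was at 0.286 and 0.28 in the REPAIR.t1 libraries with the EZH2_A22 guide, against 0.263 in DECOR. Position 49017902 on chromosome 3 (member 7) was at 0.25 and 0.171 in the dCas13d-ADAR libraries with the EZH2 guide, against 0.211 and 0.235 in DECOR. Positions 109548143 on chromosome 12, 14626887 on chromosome 19, 49580416 on chromosome 12 and 144900225 on chromosome 8 (members 8 to 11) were each in a single dCas13d-ADAR list, at 0.143 to 0.235, and the last of them lies outside the rule for named sites. None of the partners of these 11 members was listed by another editor, beside a share of 3.75% over all DECOR sites.

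**Figure D5:**
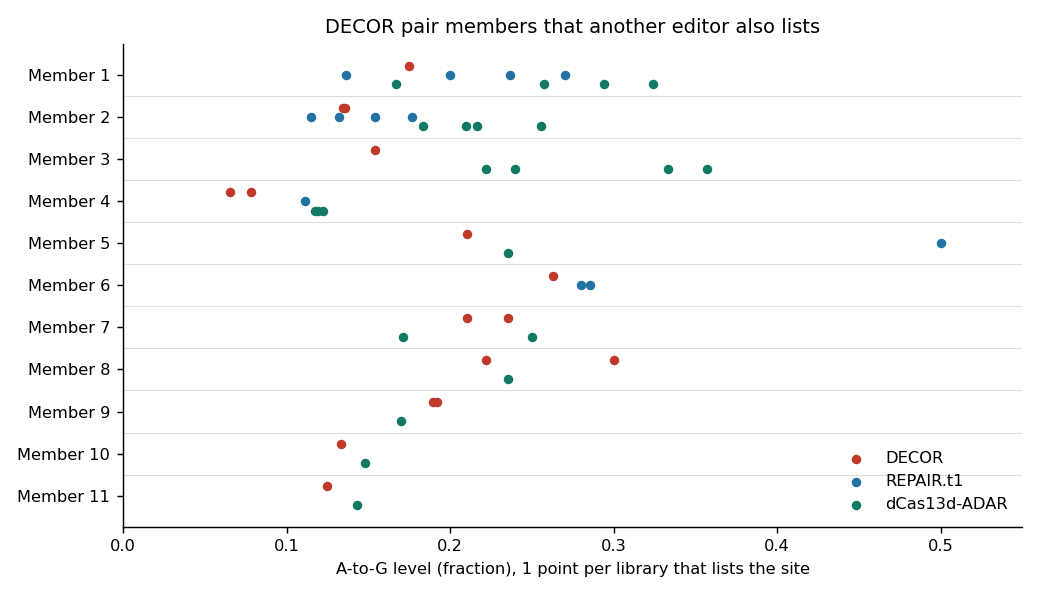
A-to-G level (fraction, horizontal axis) of the 11 members that another editor also listed, ordered by the number of other libraries that list them, with 1 point per library that lists the site. Members 1 and 2 are listed by all 8 libraries of REPAIR.t1 and dCas13d-ADAR, and member 3 by all 4 dCas13d-ADAR libraries and 1 DECOR library.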

How the data were processed

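The 14 libraries were grouped by their titles. Per the file headers, each list deposited by the authors gives an A-to-G rate, a fraction, by site. Libraries came from poly(A)-enriched RNA and a directional kit, per the labels. The submitters' processing notes name cutadapt, STAR 2.6.1b, hg19 and GRCh37, without a role. For the site caller, its thresholds and its use of strand, nothing is given in the sources used here. The lists hold no coverage, so depth and precision per site are unknown.

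Pairs, chains and overlaps were counted per list by exact position, with no filter on level. Functions were tested on simulated lists. Members and lists were chosen with earlier results of these data known. Named sites follow a rule: the 10 highest pairs, the 5 most and 5 least unequal pairs of constant order, up to 10 runs and up to 10 members in most other lists. Groups of pairs use a gap of 1000 bases. dCas13d-ADAR and REPAIR.t1 were compared by a two-sided exact permutation test at 0.05. Alternatives were minimum levels, other pair definitions, windows, permutation strata and left-out libraries. Python 3.11.15, numpy 2.4.6, pandas 2.3.3, scipy 1.17.1 and matplotlib 3.10.9 were used.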

Additional observations from a re-analysis of the deposited data

How the results depend on the processing

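Pooling positions or a minimum level of 0.1 left the numbers of pairs, members and run sites within 1.5 times their values. At a level of at least 0.2 there were 109 pairs, 213 members and 12 run sites, with a median level of 0.264 and a median partner difference of 0.0476. Pairs in both libraries numbered 55, with 106 members, 10 run sites, a median level of 0.217, a partner difference of 0.0614 and 3.77% of members in another editor's list. From a single DECOR library (replicate 2 or 1 left out) these were 147 to 175 pairs, 288 to 339 members, 14 to 31 run sites, medians of 0.2 to 0.217, partner differences of 0.0489 to 0.0509 and 2.08% to 2.65%. Fewer sites or libraries are the construction of these settings. Within 2 and 50 bases the share in another editor's list was 5.0% and 36.2%.

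The difference of dCas13d-ADAR minus REPAIR.t1 in members per library was 2.5 with p = 0.0556 with labels permuted within guides, and likewise 2.5 and p = 0.0556 with the replicate number as a block (exact permutation tests, 36 arrangements, no smaller p possible). Same-numbered libraries did not deviate together (r = -0.0415 to 0.0551 over 6 pairs of groups, 609 sites). These sites gave no sign of pairing by number. Pairing in the number of members listed per library was not checked. At a level of at least 0.2 the difference in members was 0 (exact permutation p = 1), with only 0.75 members per library in each editor. Without 1 of the 8 libraries this difference was 2.17 to 2.83, where no exact permutation p below 0.0571 is possible.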
